A study of Mus musculus with 12 samples.

Results

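The coronary plexus and the endocardium, the 2 endothelia of the embryonic ventricle, were compared by bulk RNA-seq in mice at embryonic day 13 (E13, written E13.5 in the series design). Every library labelled with either population at E13 was taken, 4 of each, which is 8 of the 12 libraries of the series. All E13 embryos carried Nes-gfp (Tg/0), a reporter that makes green fluorescent protein (GFP) under regulatory sequence of the nestin gene, and the labels give neither a strain nor a treatment for them. From ventricles freed of atria and aortic region, living cells negative for Ter119 and CD45 and positive for CD31 were sorted into an endocardial fraction, low in GFP and high in endomucin, and a coronary fraction, which was GFP-positive. Both fractions are described as enriched rather than pure. The other 4 libraries were sorted at E17 from embryos that carried Nes-CreER and an R26 tom allele besides Nes-Gfp and had received tamoxifen. They enter the count filter, the scaling of library totals and the shared estimate of spread, and are not compared here. Libraries 1 to 4 of the populations share the batch labels 1 to 4. Whether different libraries are different litters is not stated in the labels, and the p-values therefore reflect only how much these libraries vary.

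The endocardium lines the heart chambers, where it signals to the trabecular muscle and gives rise to the valve cushions. The coronary plexus is a network of immature vessels that sprouts through the ventricular wall and is later remodelled into arteries, veins and capillaries. Known sources of the plexus are the sinus venosus and the endocardium itself, so the populations are related endothelia at different positions and with different exposure to blood flow. In bulk libraries, fewer cells of a type and less RNA per cell cannot be told apart.

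Each endocardial library held 17395783 to 27360653 expected counts and each coronary library 17677860 to 21560343, and levels are given as CPM, that is counts divided by TMM-scaled library totals. The first principal component of the 8 libraries, with 77.52% of the variance of log2 CPM, separated the populations. The second, with 7.36%, spread the coronary libraries, from 35.2 in library 1 to -26.7 in library 3, more widely than the endocardial ones, which lay between -7.5 and 7.4. Log2 fold changes are coronary minus endocardial ± SE with n = 4 libraries per population, and a gene is called higher or lower, or said to have risen or fallen, where the adjusted p of edgeR's quasi-likelihood test, by Benjamini-Hochberg over 15171 genes, was under 0.05.

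The genes tied to the sorting followed their gates. Emcn, the gene of endomucin, stood at 538, 519, 531 and 547 CPM in endocardial libraries 1 to 4 and at 185, 134, 156 and 177 CPM in coronary libraries 1 to 4, in the order used for every set of values here. Nes stood at 284, 254, 243 and 267 CPM in endocardial and 573, 478, 452 and 484 CPM in coronary libraries. Endomucin was sorted on, so the Emcn difference of -1.72 ± 0.10 describes the gate. GFP was made under regulatory sequence of Nes, so the Nes difference of 0.92 ± 0.07 is not independent of the gate, though Nes itself was not sorted on. Pecam1, which encodes CD31, overlapped between the populations, with 1225, 1167, 1195 and 1309.7 CPM against 1237, 973, 861 and 1024 CPM (-0.26 ± 0.10, edgeR adjusted p = 0.0331). Cdh5, the junctional cadherin of endothelium, was like it at 2111, 1955, 2061 and 2158 and 2152, 1697, 1473 and 1719 CPM (-0.23 ± 0.09, edgeR adjusted p = 0.0415). Neither call held without endocardial library 1, 3 or 4 or without coronary library 2, 3 or 4, with edgeR adjusted p from 0.0524 to 0.112 for Pecam1 and from 0.0728 to 0.136 for Cdh5. Ptprc, which encodes CD45, had 6 counts in all endocardial and 3 in all coronary libraries.

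Outside the gate, Npr3, a clearance receptor for natriuretic peptides and a marker of the endocardium, stood at 1728, 1589, 1688 and 1715 CPM in endocardial and 185, 168, 292 and 249 CPM in coronary libraries. Its log2 fold change was -2.91 ± 0.15 (edgeR adjusted p = 1.3e-08). Unc5b, a netrin receptor of arterial and sprouting endothelium, stood at 18.7, 21.04, 19.3 and 16.9 CPM in endocardial and 442, 426, 392 and 378 CPM in coronary libraries. It was higher at 4.43 ± 0.09 (edgeR adjusted p = 7.44e-11), with the 4 libraries of each population close together and no overlap. Npr3 and Unc5b thus followed the labels of the populations, with a residue of Npr3 in every coronary library that was largest in libraries 3 and 4.

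**Figure D1:**
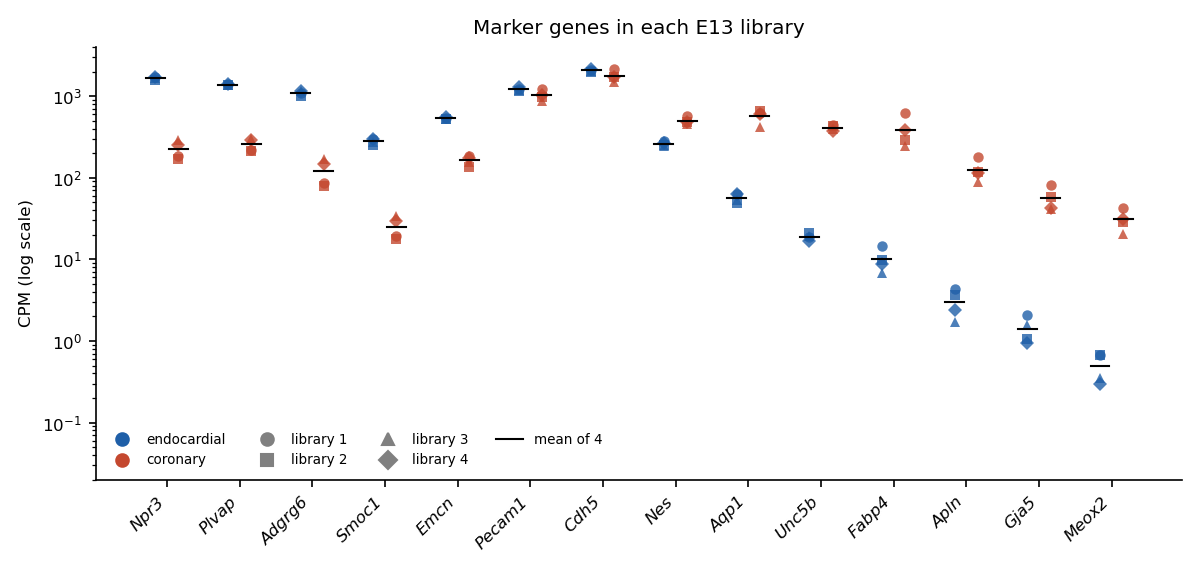
Level of 14 genes in each of the 8 E13 libraries, in CPM on a log axis. Blue points are endocardial and red points coronary libraries, the shape gives the library number and the bar is the mean of 4. Npr3 lies at 1589 CPM or more in the endocardial libraries and at 291.7 CPM or less in the coronary ones, and Pecam1 and Cdh5 overlap.

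Markers of non-endothelial cells were not evenly spread over the coronary libraries. Summed over 12 fibroblast genes, the level was 3268, 2975, 3253 and 3243 CPM in the endocardial and 2868, 5523, 7351 and 5169.7 CPM in the coronary libraries, and 10 of the 12 genes were higher in coronary cells. The share over all tested genes was 30.1% higher and 29.9% lower. Cdh11, the 1 lower gene of the 12, is also on the endocardial list, with means of 1204 CPM in endocardial and 295 CPM in coronary libraries. Without it the sum of coronary library 1 would not lie below the endocardial ones. The sum over 12 mural genes was 254, 274, 253 and 251 CPM against 390.3, 625, 777 and 552 CPM. The 22 pan-endothelial genes summed to 12908, 12152, 12793 and 13362 CPM in endocardial and 11302, 9458, 8517 and 9783 CPM in coronary libraries, with 12 lower and 6 higher, so every coronary library lay below every endocardial one. Library 3 was thus highest in fibroblast and mural markers and lowest in endothelial ones, and library 1 was the reverse. Neural crest and glial genes, 4 of 5 tested higher and 1 lower, had the same order, with sums of 3.53, 3.12, 4.05 and 3.75 against 14.9, 36.2, 47.8 and 35.7 CPM. Epicardial genes, 8 of 10 tested higher and 1 lower, summed to 17.7 to 21.6 CPM in endocardial and to 99.2, 89.3, 94.4 and 90.5 CPM in coronary libraries. Wt1, a factor of epicardium that sprouting vessels can also express, stood at 76.9, 55.95, 39.8 and 52.2 CPM in coronary libraries and so was highest in library 1. Without Wt1 the epicardial sum would be lowest in coronary library 1 and highest in library 3, as the fibroblast sum was. Erythroid genes summed to 21.1 to 482 against 58.6 to 758 CPM, cardiomyocyte genes to 302 to 467 against 204 to 419.7 CPM and platelet genes to 30.1 to 34.6 against 14.1 to 19.7 CPM. Leukocyte genes summed to 21.1 to 27.7 against 47.1 to 70.6 CPM, of which Mrc1, a mannose receptor, made up 14.8, 14.9, 11.99 and 11.5 and 60.9, 47.7, 37.5 and 41.8 CPM, and of the 10 tested 2 were higher, 1 lower and 7 not called. The part of these cells in the differences below was not tested.

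**Figure D2:**
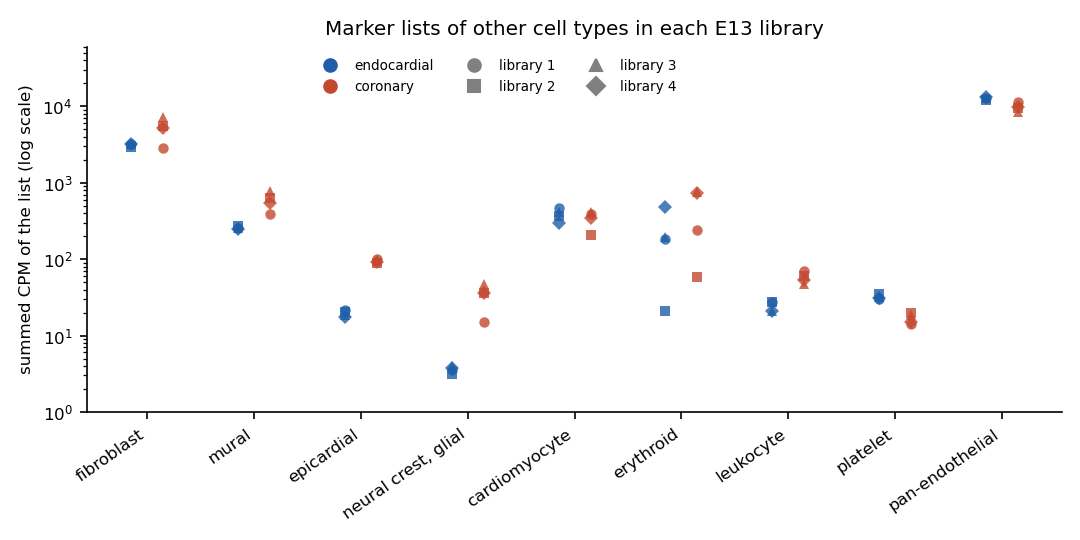
Summed CPM of marker lists in each E13 library, on a log axis, with colours and shapes as above. The fibroblast sum of coronary library 3, 7351 CPM, is the highest. That of coronary library 1, 2868 CPM, lies below those of the endocardial libraries only because the sum includes Cdh11, which is also an endocardial gene.

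The populations differed at 9106 of 15171 genes, or 60% of those tested, with 4568 higher and 4538 lower in coronary libraries. Most differences were small, and 4598 of the called genes differed by less than 1.5-fold. Larger differences leaned to the coronary side: 1778 genes (11.7%) were called and at least 2-fold higher and 950 (6.26%) at least 2-fold lower, and at 4-fold the numbers were 1040 and 261. The genes at least 2-fold higher held 1.55% ± 0.09 (SD, n = 4) of endocardial and 5.87% ± 0.18 of coronary CPM, and the genes at least 2-fold lower held 9.72% ± 0.44 and 3.02% ± 0.30. Within the 4 batches the sign was the same in all for 8814 of the called genes. These genes were called from the same libraries, so the agreement is not a separate test of the calls. With coronary libraries 2 and 4 alone, an alternative added after the data were seen, 8260 genes were called and 2600 of them differed at least 2-fold.

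**Figure D3:**
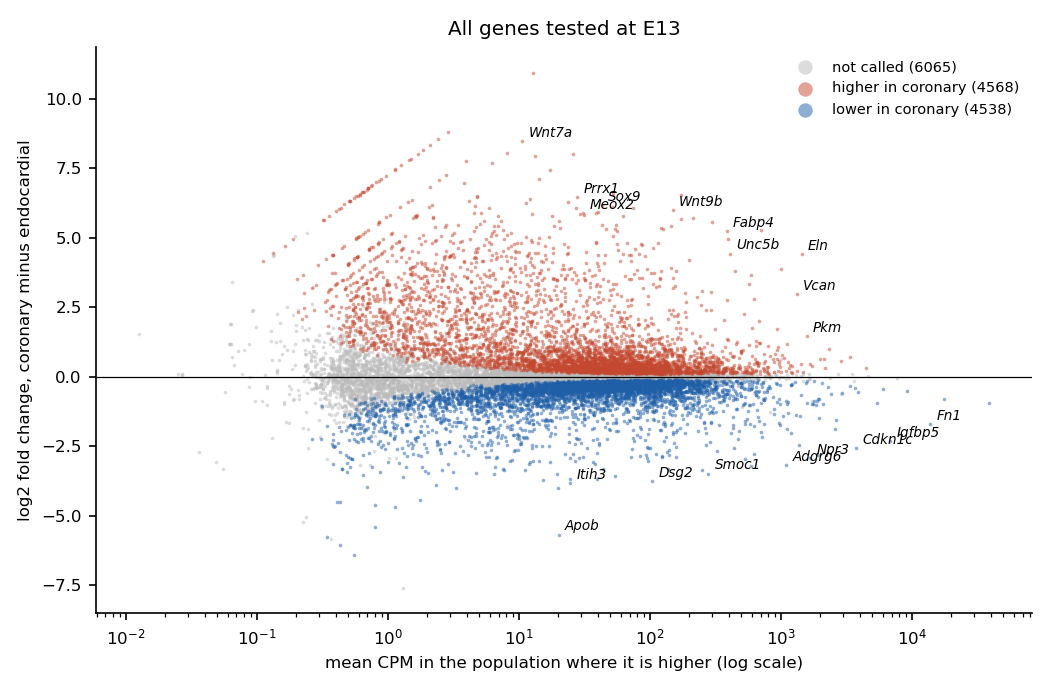
Log2 fold change, coronary minus endocardial, of the tested genes against the mean CPM in the population where each is higher (log axis), coloured by call. Of the genes called and at least 4-fold apart, 1040 lie above zero and 261 below it, and abundant endocardial genes such as Fn1, Igfbp5 and Cdkn1c lie below it too.

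1810009J06Rik, known by a clone name only, had 0 counts in all endocardial libraries together and stood at 14.6, 18.2, 6.45 and 11.8 CPM in coronary libraries. Among genes with an assigned symbol and at least 10 CPM, the largest fitted coronary excess was in Wnt7a, a Wnt ligand that acts on blood vessels of the nervous system (chr6:91363981-91411363, GRCm38). It stood at 0.0752, 0, 0 and 0 CPM in endocardial and 11.4, 12.6, 6.505 and 12.2 CPM in coronary libraries, 2 counts against 858, a ratio of 487 with a 95% exact interval from 134.5 to 4030.2 that covers counting error only. Both endocardial counts are from library 1. Car3, a carbonic anhydrase of muscle and fat, stood at 6.06, 28.9, 46.3 and 23.3 CPM in coronary libraries and at 0.0752, 0.04803, 0.1999 and 0.0595 CPM in endocardial ones. Ptx3, a secreted pattern-recognition protein, stood at 5.57, 14.2, 21.5 and 11.8 and 0.0752, 0, 0.0999 and 0 CPM. Car3 and Ptx3 were lowest in coronary library 1 and highest in library 3, as the fibroblast sum was, and Wnt7a was lowest in library 3. Serinc2, Pakap, Col9a3, Sfrp2, Prrx1, Cacng7, Dpt and Sox9, which complete the 12 largest together with Depp1, shared the order of Car3 in that library 3 was highest and library 1 lowest. Depp1, a target of forkhead factors, stood at 29.9, 18.8, 17.1 and 28.96 CPM in coronary libraries.

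Sorted by this difference between coronary libraries, a split chosen after the values were seen, the 329 genes that were 4-fold or more higher and reached 10 CPM in coronary cells fell into 4 kinds. In 88 of them the highest coronary library was within 1.5-fold of the lowest, in 122 library 3 was at least 2-fold above library 1, in 19 library 1 was at least 2-fold above library 3, and 100 lay between. Among all 9378 tested genes at 10 CPM or more the same counts were 8530, 248 and 33. The 88 even genes included Ltbp2, a latent TGF-beta binding protein (0.376, 0.432, 0.5497 and 0.238 against 24.6, 31.7, 24.1 and 28.3 CPM). They also included Dkk2, a secreted Wnt modulator (0.639, 0.768, 1.05 and 0.833 against 22.1, 22, 22.3 and 22.8 CPM). Igfbp7, Tnc, Cyp26b1, Ace, Kcnj8, Itgb4, Hey2, Kcne3, Pgf, Bmp4, Slc16a3 and Piezo2 were even as well. The 122 genes higher in library 3 than in library 1 included the fibroblast and valve genes Col1a1, Dcn and Has2, and the 19 higher in library 1 than in library 3 included the capillary genes Meox2, Fabp4, Cd36 and Gpihbp1.

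**Figure D4:**
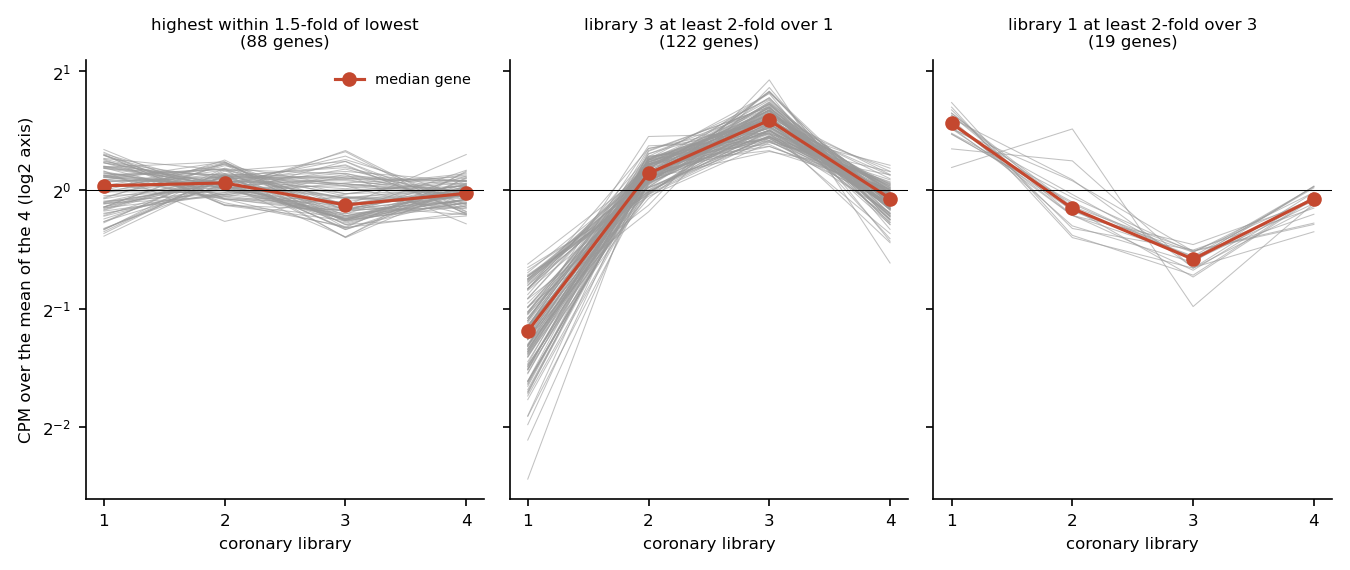
CPM in each coronary library over the mean of the 4 (log2 axis) for genes at least 4-fold higher in coronary cells, in 3 of the 4 kinds. Grey lines are genes and the red line their median. The 88 genes on the left are even by construction, the 122 in the middle are higher in library 3 than in library 1, and the 19 on the right are lower there.

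On the endocardial side, the largest fall among genes with at least 10 CPM was in Apob, the gene of the main protein of low-density lipoproteins, at 19.8, 17.8, 18.7 and 24.6 CPM in endocardial and 0.0541, 0.0866, 0.807 and 0.6401 CPM in coronary libraries (-5.67 ± 0.46, edgeR adjusted p = 1.14e-06, and -6.28 without coronary library 3). Slc7a14, a lysosomal membrane protein of the amino acid transporter family, stood at 17.6, 21.3, 18.7 and 22.7 and 0.757, 0.866, 1.66 and 1.71 CPM. Itih3, a hyaluronan-binding inhibitor chain, stood at 24.3, 25.9, 25.3 and 22.8 and 1.298, 2.29, 2.02 and 1.23 CPM. The endocardial libraries lay close together for all 3 genes and far above every coronary one. Dsg2, a desmosomal cadherin better known from muscle and epithelium, stood at 106, 106, 96.8 and 109 and 5.46, 5.93, 11.7 and 7.84 CPM (-3.76 ± 0.17). Gbp8, Enpp6, Mal, Comp, Lat, Smoc1, Pgbd5 and Dpp4 complete the 12 largest falls, with log2 fold changes from -3.71 to -3.34. Of 103 genes at least 4-fold lower with 10 CPM or more in endocardial cells, 96 had endocardial libraries within 1.5-fold of each other, while in the coronary libraries 75 were highest in library 3 and 24 in library 4.

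A total of 16 genes had at least 5 CPM in every coronary and under 0.5 CPM in every endocardial library, and 0 had the opposite pattern. They were 1810009J06Rik, Wnt7a, Car3, Ptx3, Serinc2, Pakap, Depp1, Ccdc42, Erbb3, Il1rl1, Hoxa3, St8sia6, Lrrc15, Bean1, Lamc3 and Plek2. The number depended on the limits, with 79 and 2 genes where 2 CPM was asked for and 1 and 0 where 10 CPM was. Erbb3, a neuregulin receptor of neural crest and cushion mesenchyme, stood at 6.76, 19.6, 26.98 and 18.6 CPM in coronary libraries and followed the fibroblast sum, and so did the neuronal tubulin gene Tubb3 at 4.81, 13.4, 17.4 and 14.5 CPM.

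Among the most abundant genes that differed at least 2-fold was Fn1, the gene of fibronectin, at 13559, 12717, 13932 and 14757 CPM in endocardial and 3282, 4112, 5181 and 4498 CPM in coronary libraries (-1.69 ± 0.12, edgeR adjusted p = 1.65e-07). Igfbp5, an insulin-like growth factor binding protein, stood at 7225, 5751, 6663 and 7658 and 1118, 1189, 1659 and 1486 CPM (-2.32 ± 0.12). Cdkn1c, an imprinted inhibitor of cyclin-dependent kinases, stood at 3651, 3711, 3915 and 3729 and 513, 485, 828 and 717 CPM (-2.56 ± 0.14). Each of the 3 was lower in every coronary library than in any endocardial one. The other abundant lower genes were Ece1, Plagl1, Aplp2, Ednrb, Agrn, Npr3 and Cgnl1. On the coronary side, Eln, the gene of elastin, stood at 83.4, 54.04, 69.02 and 66.1 and 1053, 1568, 1757 and 1405 CPM (4.41 ± 0.17). Vcan, a matrix proteoglycan of cushions and outflow, stood at 192, 158, 161 and 164 and 852, 1497, 1669.9 and 1307 CPM (2.98 ± 0.20), and Cav1, the coat protein of caveolae, at 338, 254, 270.2 and 325 and 1032, 604, 478 and 668 CPM (1.23 ± 0.20). Pkm, Tmsb4x, Thbs1, Tuba1a, Eno1, Fbln2 and Col1a1 were the other 7 of the 10 most abundant.

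The identity lists parted in their strength. Of 20 endocardial genes, 13 were lower and 4 higher, with a median log2 fold change of -1.28 against -0.02 over all tested genes. The 4 higher genes included Edn1 and, at least 2-fold higher, Tbx20 and Hapln1. Hapln1 had means of 180 CPM in endocardial and 599.9 CPM in coronary libraries (1.74 ± 0.13). Adgrg6, an adhesion receptor, stood at 1086, 1008, 1150.0 and 1166 CPM in endocardial and 86.6, 79.4, 172 and 148 CPM in coronary libraries. Plvap, which forms the diaphragms of fenestrae and caveolae, stood at 1399, 1355, 1371 and 1418 and 219, 215, 298 and 293 CPM, and Smoc1, a calcium-binding matrix protein, at 301, 252, 270.4 and 295 and 19.1, 17.8, 33.7 and 29.5 CPM. All 3 were higher in coronary libraries 3 and 4 than in 1 and 2, as Npr3 was. Of the factor genes of endocardial development, 3 did not pass, with Gata4 at 0.15 ± 0.09 (edgeR adjusted p = 0.149), Nfatc1 at 0.10 ± 0.06 and Gata5 at -0.17 ± 0.12. Gata4 was called higher without coronary library 1 (edgeR adjusted p = 0.00705). Of 17 heart capillary genes, 10 were higher and 4 lower (median 1.23). Aqp1, the water channel of capillary walls, stood at 62.7, 49.4, 52.7 and 63.7 and 625, 649.8, 416 and 603 CPM, and the fatty acid chaperone gene Fabp4 at 14.6, 9.85, 6.797 and 8.86 and 627, 292, 245 and 381 CPM. Both were lowest in coronary library 3. Fabp5 and Lpl were among the lower capillary genes. Their means were 936 CPM in endocardial and 498 CPM in coronary libraries for Fabp5 (-0.91 ± 0.10) and 44.4 and 19.4 CPM for Lpl (-1.19 ± 0.15).

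Of 20 arterial genes, 16 were higher and 3 lower (median 2.19). Gja5, the connexin of arteries, stood at 2.105, 1.06, 1.55 and 0.952 CPM in endocardial and 80.9, 58.7, 41.8 and 42.6 CPM in coronary libraries (5.25 ± 0.28, edgeR adjusted p = 2.38e-08). Hey2, a Notch target that keeps the arterial state, stood at 3.83, 2.69, 3.65 and 3.63 and 73.03, 72.7, 61.9 and 77.3 CPM, and the chemokine gene Cxcl12 at 3.19, 3.22, 2.599 and 2.68 and 42.6, 65.6, 81.7 and 60.1 CPM. Of 12 venous genes, 5 were higher and 5 lower. Nr2f2, the factor that sets venous identity, was lower in coronary cells (202, 184, 184 and 192 against 59.5, 55.95, 58.5 and 60.2 CPM), and Aplnr, the apelin receptor of venous and sprouting cells, was higher (29.5, 22.4, 20.1 and 19.7 against 248, 179.6, 133 and 180.3 CPM). Lymphatic genes were split, 5 higher and 3 lower of 9, and Prox1, the factor that sets lymphatic identity, did not pass (-0.16 ± 0.10, edgeR adjusted p = 0.218).

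Transcription factor genes differed most in the mesoderm and homeobox list, where 18 of 24 were higher and 4 lower (median 2.93). Meox2, a homeobox factor of heart capillaries, stood at 0.676, 0.672, 0.3498 and 0.297 CPM in endocardial and 43, 28.6, 20.7 and 31.6 CPM in coronary libraries and was highest in library 1. Its relative Meox1 stood at 3.98, 2.88, 2.75 and 2.91 and 32.3, 84.5, 116 and 77.5 CPM. Prrx1, a homeobox factor of mesenchyme, stood at 0.338, 0.576, 0.1999 and 0.0595 and 8.65, 31.6, 46.04 and 24.96 CPM. Meox1 and Prrx1 were highest in coronary library 3, so the 2 Meox genes were ordered oppositely over the coronary libraries. Msx1, Tcf21 and Hoxa3 were higher at 2.26 ± 0.15, 5.42 ± 0.51 and 5.26 ± 0.41 (Hoxa3 at 6.22 without endocardial library 2), and the abundant Meis2 did not pass (0.05 ± 0.14).

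Among SoxF and Ets factors, which set the endothelial program, 9 of 19 were lower and 3 higher, with 0 of the lower ones at least 2-fold. Sox17, an arterial SoxF factor, stood at 6.201, 5.67, 4.85 and 5.77 CPM in endocardial and 70.97, 43.2, 36.6 and 46.7 CPM in coronary libraries (3.13 ± 0.19, edgeR adjusted p = 5.41e-08). Its relative Sox18 stood at 50.1, 42.2, 38.4 and 36.5 and 137, 97.2, 81.1 and 87.3 CPM (1.26 ± 0.15). Among 26 cardiac factors 10 were higher and 7 lower. The Iroquois factors Irx5 and Irx3 were lower, at 75.1, 75.8, 73.4 and 65.1 against 9.304, 6.93, 12.8 and 10.1 CPM and -2.87 ± 0.17 on the log2 scale. Tbx20, a T-box factor of cushions and myocardium that is also on the endocardial list, stood at 32.8, 32.6, 32.6 and 30.9 and 265, 483, 613 and 436 CPM, with library 3 above library 1. Tbx18, shared with the epicardial list, rose by 4.47 ± 0.54. Forkhead factors were lower in 7 and higher in 4 of 17, with Foxc1 at 177, 156, 179 and 164 and 44.6, 41.2, 55.2 and 48.6 CPM and Foxc2 lower at -1.49 ± 0.12. Flow-responsive factors showed no lean, with 5 higher and 5 lower of 16. Klf4, a factor induced by laminar flow, had 269.8, 240.0, 178 and 192 and 257, 313, 215 and 214 CPM (0.18 ± 0.14, edgeR adjusted p = 0.283) and was called higher with the batch as a block (edgeR adjusted p = 0.043).

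Angiogenic ligands and their receptors were called in unequal shares. Of 16 ligand genes, 13 were higher and 2 lower (median 1.93). Of 16 receptor genes, 6 were higher and 8 lower (median -0.10), and the difference between the lists was not tested. Apln, the peptide ligand of Aplnr that marks sprout tips, stood at 4.36, 3.65, 1.699 and 2.38 CPM in endocardial and 177, 118, 89.9 and 114 CPM in coronary libraries (5.32 ± 0.27, edgeR adjusted p = 1.36e-08). Vegfa, the main vascular growth factor, stood at 22.4, 26.8, 24.1 and 19.4 and 80.4, 84.1, 65.05 and 70.2 CPM, and the related ligand gene Pgf at 1.58, 1.297, 1.95 and 1.78 and 26.6, 23.99, 21.6 and 24.3 CPM. Among receptors, Ackr3, a scavenger of Cxcl12, was lower (427, 396, 414 and 426 against 88.9, 90.8, 124 and 108 CPM), as was the angiopoietin receptor gene Tek (-0.88 ± 0.05). Flt1, a decoy receptor of Vegfa, did not pass (0.05 ± 0.09, edgeR adjusted p = 0.688), and Ptprb, a phosphatase of Tek, rose (175, 172, 163 and 174 against 725, 762, 575 and 673 CPM). Of 16 tip cell genes, 13 were higher, and Esm1, a secreted proteoglycan of tip cells, had 1.58, 2.06, 1.699 and 2.08 and 31.7, 25.2, 18.4 and 17.2 CPM.

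Notch ligands went in both directions. Jag2 stood at 5.94, 5.67, 5.697 and 4.76 CPM in endocardial and 104, 80.5, 59.95 and 77.4 CPM in coronary libraries (3.85 ± 0.16, edgeR adjusted p = 3.62e-09). Jag1 was also higher (1.26 ± 0.09), as was Dll4 (0.79 ± 0.14), while Dll1 was lower at 125, 132, 134 and 129 against 38.1, 38.7, 42.9 and 38.8 CPM (-1.72 ± 0.07). Mfng, a fringe that modifies Notch receptors, rose by 2.02 ± 0.12. Of 16 ligand and receptor genes 6 were higher and 7 lower, and of 12 target and nuclear genes 4 and 4. Hey2, Heyl and Nrarp were among the higher targets (4.36 ± 0.15, 2.36 ± 0.20 and 0.90 ± 0.13) and the coactivator gene Maml2 among the lower ones (-0.92 ± 0.08).

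Wnt ligand and receptor genes were higher in 11 and lower in 5 of 22. Wnt9b, a ligand of endocardium and kidney duct (chr11:103727364-103749821, GRCm38), was higher in the coronary libraries, at 1.92, 2.402, 2.799 and 2.44 against 151, 187, 106 and 157 CPM (5.99 ± 0.25, edgeR adjusted p = 4.48e-09). It was lowest in library 3, as Wnt7a was. The coreceptors Adgra2 and Lrp5 were lower, by -0.99 ± 0.05 and -0.89 ± 0.06. Of 21 targets and secreted inhibitors 14 were higher and 2 lower (median 2.39). The target gene Apcdd1 stood at 26.2, 25.8, 25.04 and 30.3 and 110.1, 154, 144 and 154 CPM, and Sfrp2, a secreted inhibitor made by mesenchyme, at 2.37, 1.82, 2.199 and 0.892 and 52.6, 207, 304 and 128 CPM, with library 3 highest. Ccnd1 did not pass (-0.24 ± 0.10) and was called lower with the batch block (edgeR adjusted p = 0.00505).

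In the BMP and TGF-beta lists, ligands and antagonists were the members that rose most. Bmp4 stood at 2.71, 1.49, 2.15 and 3.33 CPM in endocardial and 27.3, 37.3, 39.1 and 33.5 CPM in coronary libraries (3.83 ± 0.19, edgeR adjusted p = 1.32e-08). Bmper and Fst, secreted binding proteins of BMPs and activins, were higher at 5.30 ± 0.31 and 3.92 ± 0.24. Tgfbr3, a coreceptor that presents TGF-beta, was lower at 429.7, 414, 453 and 453 against 67.3, 59.98, 93.2 and 77.5 CPM (-2.56 ± 0.11). Id2, a BMP target, was lower (-1.31 ± 0.14). The counts were 11 higher and 7 lower of 23 ligands and receptors, and 12 and 2 of 19 targets. Among 29 growth factor genes 16 were higher and 8 lower. Kitl, the ligand of Kit, stood at 45.5, 38.2, 37.7 and 40.7 and 303, 242, 198 and 241 CPM, and Igf2r, which clears Igf2, was lower at -0.93 ± 0.06.

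Guidance genes were higher in 17 and lower in 9 of 33. Sema7a, a membrane-anchored semaphorin, stood at 1.24, 1.97, 1.05 and 1.07 CPM in endocardial and 79.4, 45.7, 41.3 and 50.5 CPM in coronary libraries, and Sema3g, an arterial semaphorin, at 4.81, 7.06, 5.75 and 6.24 and 98.5, 73.4, 59.2 and 73.7 CPM. Sema3a ran the other way, at 131, 116, 133 and 141 and 33.05, 33.95, 43.7 and 40.1 CPM. Efnb2, an arterial ephrin, did not pass (0.15 ± 0.09, edgeR adjusted p = 0.181) but was called higher without coronary library 3 (edgeR adjusted p = 0.0365).

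Genes that set vessel tone were divided, 13 higher and 9 lower of 28. Ednrb, the endothelin receptor of endothelium, stood at 1953, 1756, 1941 and 2094 CPM in endocardial and 235, 217, 330.5 and 306 CPM in coronary libraries (-2.83 ± 0.12, edgeR adjusted p = 5.61e-09). Ece1, the enzyme that activates endothelin, was lower at 2617, 2449, 2664 and 2744 against 855, 810.4, 926 and 983 CPM (-1.55 ± 0.06). Ace, the angiotensin-converting enzyme, stood at 3.38, 1.49, 1.799 and 1.19 and 69.3, 51.7, 50.2 and 54.6 CPM (4.77 ± 0.24), and Nos2, the inducible nitric oxide synthase, at 0.639, 0.384, 0.3998 and 0.535 and 28.8, 18.5, 17.8 and 17.6 CPM (5.36 ± 0.24). Edn1, the gene of endothelin itself, was higher at 0.66 ± 0.10. Receptor and enzyme of the endothelin system were thus lower and the ligand higher in coronary cells, and Ace and Nos2 were low in every endocardial library. S1pr1, a sphingosine phosphate receptor, did not pass (-0.17 ± 0.11) but was called lower without coronary library 1 (edgeR adjusted p = 0.0204).

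Of 14 cadherin and catenin genes 9 were higher and 5 lower. Cdh11, a mesenchymal cadherin on the endocardial list, was lower (1215, 1153, 1217 and 1231 against 231, 287, 352 and 311 CPM), and so was Pcdh7 (-2.88 ± 0.18). Pcdh1 was higher (36.5, 34.9, 33.7 and 34.4 against 381, 282, 225 and 275 CPM). Cldn5, the main claudin of vessels, stood at 9.396, 9.94, 6.15 and 6.66 and 148, 107, 83.96 and 94.5 CPM (3.74 ± 0.20, edgeR adjusted p = 2.26e-08), while Cgnl1, a junction scaffold, was lower (-1.41 ± 0.08). Desmosomal genes went both ways, with Dsg2 and Pkp2 lower and Dsp higher (-1.38 ± 0.08 and 2.11 ± 0.17). Of 17 integrins 12 were higher and 3 lower. Itgb4, which binds laminin, stood at 4.21, 2.98, 3.65 and 4.46 and 93.4, 84.7, 62.6 and 88.5 CPM, and Itga6, its partner subunit, was lower (1101, 1018, 1152 and 1205 against 643, 519.6, 526 and 579 CPM).

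Of 17 basement membrane genes 6 were higher and 9 lower. Col15a1, a collagen of capillary basement membrane, stood at 18.3, 12.8, 7.896 and 11.3 CPM in endocardial and 549, 369.6, 266 and 402 CPM in coronary libraries, and Agrn was lower (-1.01 ± 0.06). Of 26 fibrillar and elastic matrix genes 17 were higher and 6 lower. Fbln5, which assembles elastic fibres, stood at 4.47, 4.42, 4.798 and 2.26 and 120.0, 225, 323 and 186 CPM. Col1a1 stood at 24.6, 9.22, 23.04 and 16.1 and 285, 786, 1084 and 687 CPM, and the cushion gene Has2, a hyaluronan synthase, at 0.789, 0.624, 0.5497 and 1.01 and 27.97, 62.8, 67.3 and 48.1 CPM. These 3 were lowest in coronary library 1 and at least 2-fold higher in library 3. Without coronary library 3, Col1a1 was higher by 5.02 and Has2 by 5.99 on the log2 scale.

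Transport genes leaned to the coronary side. Of 25 channel, water channel and carbonic anhydrase genes 18 were higher and 5 lower (median 1.48). Piezo2, a mechanically gated channel, stood at 9.96, 13.2, 7.95 and 9.63 and 136, 122, 105 and 112 CPM, while its relative Piezo1 was lower (-0.73 ± 0.07). Kcnj8, a potassium channel subunit also used as a mural marker, stood at 0.752, 0.721, 0.7496 and 0.654 and 23.1, 17.4, 15.9 and 16.6 CPM. Of 27 solute carriers 13 were higher and 6 lower, with the lactate exporter gene Slc16a3 at 7.82, 11.5, 8.396 and 7.02 and 131, 138, 109 and 109.8 CPM. Abcb1a, an efflux pump of the blood-brain barrier, had 0.639, 0.0961, 0.2999 and 0.297 and 11.04, 5.54, 6.05 and 6.61 CPM (4.33 ± 0.35, and 4.97 without endocardial library 1). Of 19 lipid uptake genes 12 were higher and 4 lower, with Apoe lower (-1.66 ± 0.15).

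**Figure D5:**
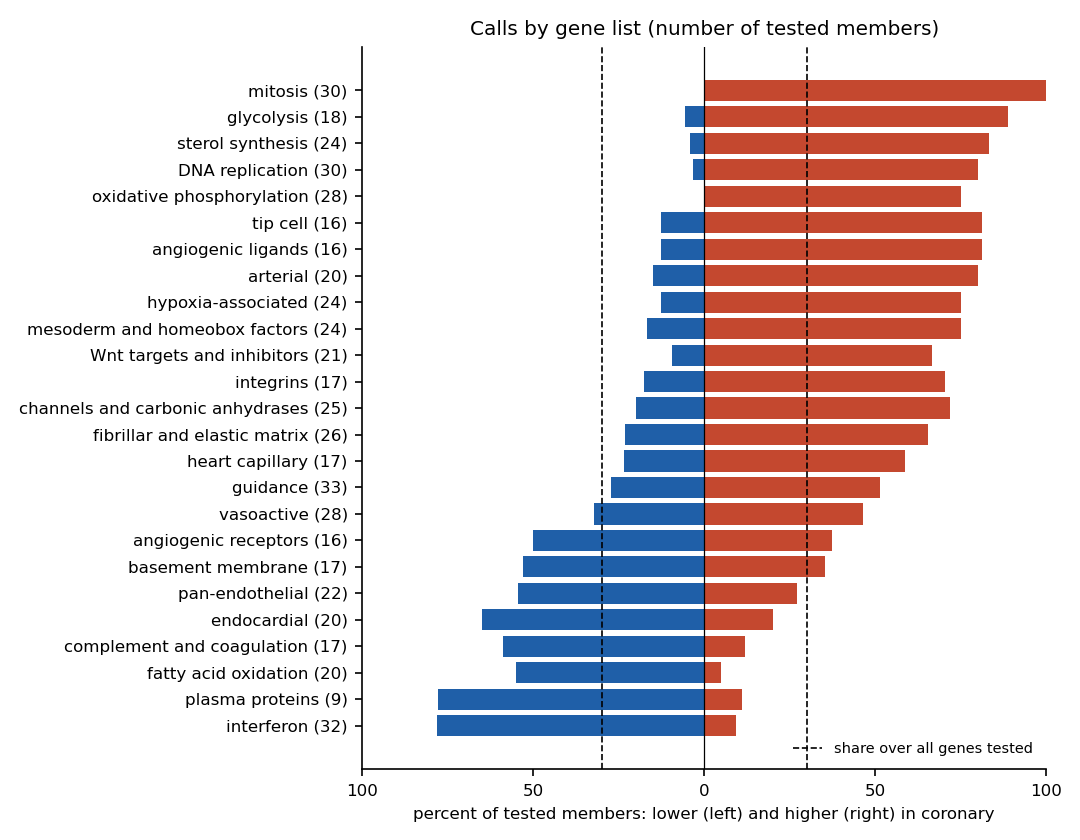
Percent of tested members of 25 gene lists called higher (red, right) or lower (blue, left) in coronary libraries, with the number tested in brackets. Dashed lines mark the shares over all tested genes, 30.1% higher and 29.9% lower. All 30 mitosis genes were higher and 25 of 32 interferon genes lower.

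Cell division genes were higher, and promoters of 3 of them are printed because every tested mitosis gene was. All 30 of 30 mitosis genes were higher (median 0.95), against 24 of 30 replication genes (median 0.42). Cenpa, the centromeric histone, stood at 40.2, 36.1, 30.4 and 35.6 CPM in endocardial and 83.4, 74.01, 70.6 and 76.2 CPM in coronary libraries (1.09 ± 0.08, edgeR adjusted p = 3.25e-07). Birc5, a subunit of the chromosomal passenger complex, stood at 39.3, 33.1, 27.1 and 29.02 and 78.2, 75.1, 72.3 and 74.4 CPM. Mcm2, a subunit of the replicative helicase, did not pass (0.02 ± 0.05, edgeR adjusted p = 0.689). Among inhibitors of the cycle, Cdkn1a ran against Cdkn1c, with 9.47, 11.1, 8.996 and 9.75 and 57.8, 61.02, 39.2 and 47.6 CPM (2.39 ± 0.15). The CCAAT box, searched as CCAAT on both strands from 250 bases before to 50 after the start, was found in 21 of 24 mitosis promoters (87.5%) and in 38.7% of 10571 promoters of tested genes. Split by call, the shares over all tested genes were close, at 38.8% of higher, 37.7% of lower and 39.4% of uncalled genes. Windows of 100 bases upstream of the start follow, from RefSeq on GRCm38.p6, 5′ to 3′ on the gene's strand, with CCAAT or its reverse complement in capitals. They are Cenpa at chr5:30666738-30666837 (plus strand), Ccnb1 at chr13:100786520-100786619 (minus strand) and Plk1 at chr7:122159335-122159434 (plus strand).
Cenpa: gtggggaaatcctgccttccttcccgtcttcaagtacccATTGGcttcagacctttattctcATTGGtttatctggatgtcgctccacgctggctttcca
Ccnb1: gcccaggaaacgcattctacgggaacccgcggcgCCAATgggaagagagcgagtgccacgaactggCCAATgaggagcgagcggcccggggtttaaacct
Plk1: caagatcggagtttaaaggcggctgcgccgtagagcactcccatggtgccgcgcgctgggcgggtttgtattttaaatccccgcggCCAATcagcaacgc
A match is a description of the letters and not a test of a factor.

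Glycolysis genes were higher in 16 of 18 cases and lower in 1 (median 1.07). Pfkp, a phosphofructokinase, stood at 10.2, 10.9, 9.296 and 11 CPM in endocardial and 85.8, 80.9, 56.3 and 67.5 CPM in coronary libraries (2.81 ± 0.13, edgeR adjusted p = 6.76e-09). Pkm, the last enzyme of the pathway, stood at 594, 609, 561 and 542 and 1822, 1679, 1318 and 1495 CPM (1.45 ± 0.10). Of 24 hypoxia-associated genes 18 were higher and 3 lower (median 0.79), with the collagen hydroxylase genes Plod2 and P4ha2 higher at 1.92 ± 0.10 and 1.44 ± 0.08 and Hif3a lower (186, 174, 194 and 185 against 37.8, 42.05, 56.02 and 44.1 CPM). ACGTG, the core of the hypoxia response element, was found on either strand in 9 of 18 glycolysis promoters (50%), in 9 of 16 hypoxia-associated ones (56.2%) and in 25.4% of those of tested genes. Split by call, it was in 26.3% of higher, 25.2% of lower and 24.8% of uncalled genes. The E-box CACGTG holds the same letters. The windows, in the same form, show Pgk1 at chrX:106186909-106187008 (plus strand), Ldha at chr7:46845675-46845774 (plus strand) and P4ha2 at chr11:54100796-54100895 (plus strand). Their promoters held 2, 5 and 2 matches. Pgam1, P4ha1 and Egln3, with 1 match each, were also picked by smallest adjusted p among members with a match and are not shown.
Pgk1: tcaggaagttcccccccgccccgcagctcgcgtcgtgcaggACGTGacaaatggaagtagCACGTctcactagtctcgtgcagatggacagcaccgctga
Ldha: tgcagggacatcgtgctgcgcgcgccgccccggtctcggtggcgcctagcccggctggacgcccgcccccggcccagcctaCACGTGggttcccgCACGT
P4ha2: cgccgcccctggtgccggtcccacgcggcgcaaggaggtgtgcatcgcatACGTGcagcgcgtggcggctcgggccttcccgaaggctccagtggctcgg
In coronary cells Pgk1 was higher at 1.3 ± 0.13 and Ldha by 0.96 ± 0.11.

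Other metabolic lists went in both directions. Of 28 nuclear genes of oxidative phosphorylation 21 were higher and 0 lower, with 0 of them by 2-fold and a median of 0.21. Cycs, the gene of cytochrome c, rose most at 0.74 ± 0.08. Of 20 fatty acid oxidation genes 1 was higher and 11 were lower (median -0.21), and Acaa2, a mitochondrial thiolase, stood at 57.7, 54.04, 60.02 and 58.04 CPM in endocardial and 28.99, 28.6, 30.4 and 31.3 CPM in coronary libraries. The higher member, Ppargc1a, a coactivator of mitochondrial genes, lost its call with the batch as a block (edgeR adjusted p from 0.046 to 0.0506) and without any 1 library other than coronary libraries 1 and 2. Of 24 sterol and fatty acid synthesis genes 20 were higher and 1 lower (median 0.98). Fdps, an enzyme of the mevalonate pathway, stood at 21.7, 22.6, 20.6 and 19.7 and 81.5, 73.97, 66.6 and 66.2 CPM. Of 28 ribosomal protein genes 13 were higher and 1 lower, with a median of 0.12.

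Interferon-pathway genes were mostly lower, 25 of 32 against 3 higher, at a median of -1.50. Bst2, a surface protein that tethers viruses, stood at 84.6, 78.5, 85.2 and 78.8 CPM in endocardial and 30.7, 25.8, 31.5 and 28.4 CPM in coronary libraries (-1.49 ± 0.07, edgeR adjusted p = 1.24e-08). Irf8, Ifit2 and Ifitm1 were the higher members, at 0.87 ± 0.12, 1.36 ± 0.27 and 3.15 ± 0.47. The core of the interferon-stimulated response element, GAAA-NN-GAAA read without the hyphens and with N for any base, was found on either strand in 13 of 28 promoters of the list (46.4%) and in 2.9% of those of tested genes. Split by call, it was in 2.2% of higher, 3.7% of lower and 2.8% of uncalled genes. The windows, in the same form and chosen by smallest adjusted p among members with a match, are Bst2 at chr8:71537550-71537649 (minus strand), Gbp2 at chr3:142620554-142620653 (plus strand) and Stat2 at chr10:128270248-128270347 (plus strand). Overlapping matches are joined.
Bst2: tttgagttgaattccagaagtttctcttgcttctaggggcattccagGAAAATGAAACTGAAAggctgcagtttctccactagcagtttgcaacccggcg
Gbp2: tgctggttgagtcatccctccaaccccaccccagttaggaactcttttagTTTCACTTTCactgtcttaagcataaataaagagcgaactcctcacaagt
Stat2: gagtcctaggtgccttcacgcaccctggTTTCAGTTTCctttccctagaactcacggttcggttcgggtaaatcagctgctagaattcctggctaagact
Gbp2 and Stat2 were lower at -2.31 ± 0.20 and -0.55 ± 0.06.

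Other immune and plasma genes were mostly lower too. Of 17 complement and coagulation genes 10 were lower and 2 higher. Cd59a, a membrane inhibitor of complement, stood at 118, 124, 118 and 128 CPM in endocardial and 32.4, 30.3, 31.8 and 35.3 CPM in coronary libraries (-1.91 ± 0.06, edgeR adjusted p = 7.4e-10). Of 9 plasma protein genes 7 were lower, Itih5 was higher at 3.90 ± 0.36 and Hpx did not pass (0.27 ± 0.40). Of 10 MHC class I genes 5 were lower and 2 higher, and H2-K1 (0.83 ± 0.36) was called higher with the batch block (edgeR adjusted p from 0.0661 to 0.00178), and without endocardial library 2 or coronary library 1 (edgeR adjusted p = 0.0102 and 0.044). Its reads can be divided among near-identical class I genes.

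Some stress genes differed more between batches than between populations. Hspa1b, an inducible chaperone, stood at 454, 183, 708 and 691 CPM in endocardial and 106, 39.5, 384 and 428 CPM in coronary libraries, so that the populations overlapped and library 2 was lowest in both. It did not pass (-1.09 ± 0.64, edgeR adjusted p = 0.164) and was called lower with the batch as a block (-1.45, edgeR adjusted p = 0.000956). It shares most of its sequence with Hspa1a. Of 22 stress and immediate early genes 9 were higher, 1 lower and 12 not called, and with the batch as a block 13 were higher, 2 lower and 7 not called. The block added Fosl2, Junb, Ier2 and Dusp1 to the higher members, and in place of Dnajb1 the lower ones were Hspa1a and Hspa1b. Atf3, a stress-induced factor, was higher at 1.29 ± 0.19.

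Of 959 noncoding genes tested, 100 were higher and 208 lower, and 65 and 97 of these at least 2-fold. Over all tested genes the shares were 30.1% higher and 29.9% lower, and 11.7% and 6.26% at least 2-fold. Noncoding genes were thus called less often than tested genes at large in both directions. At 2-fold they were less often higher and more often lower. Rian, a maternally expressed RNA of an imprinted cluster, stood at 33.9, 33.4, 42.3 and 37.6 CPM in endocardial and 172, 179, 201 and 192 CPM in coronary libraries. Meg3, from the same cluster, stood at 26.5, 35.1, 41.7 and 32.9 and 162, 165, 167 and 158 CPM, and both were even over the coronary libraries. Neat1, the scaffold of paraspeckles, was higher at 1.39 ± 0.16, and Dnm3os and Gm26827 at 3.32 ± 0.44 and 1.58 ± 0.30. Firre and Cep83os were lower, at -1.28 ± 0.09 and -1.48 ± 0.13. Hand2os1, transcribed next to Hand2, was lower at 106, 115, 105 and 97.6 against 35.05, 34.3, 37.01 and 40.8 CPM (-1.53 ± 0.09). Airn and Kcnq1ot1, antisense RNAs of other imprinted loci, were lower at -1.33 ± 0.10 and -1.22 ± 0.11. The libraries do not mark strand, so reads of Airn and Igf2r, or of Kcnq1ot1 and Kcnq1, cannot be told apart where the genes overlap. Igf2r and Kcnq1 were lower as well (-0.93 ± 0.06 and -1.43 ± 0.11). Of 17 imprinted genes 7 were higher and 7 lower, with H19 at 39932, 36256, 39151 and 41107 and 18894, 19253, 21563 and 21995 CPM and Plagl1 lower at -1.88 ± 0.06.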

How the data were processed

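Per the labels' protocols, RNA of freshly sorted cells was isolated with a PicoPure kit, selected for polyA tails and made into NEBNext Ultra libraries for single reads on an Illumina HiSeq. This kit does not mark strand. The authors deposited expected counts per gene, of which 18.31% are not whole, for 41214 genes in 12 libraries. The submitters' processing notes name build GRCm38 and the tools RSEM 1.2.3, cutadapt 1.3 and CASAVA 1.8.2 (settings: not given in the sources used here). Reads that match more than 1 gene are shared out by RSEM's model, so near-identical genes are uncertain.

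Expected counts were rounded. Run over all 12 libraries, filterByExpr (minimum count 10, total 15) kept 15171 genes. The quasi-likelihood test of edgeR 4.0.16 (R 4.3.3), with TMM and 1 fit of 4 group means over 12 libraries (8 residual degrees of freedom, biological coefficient of variation 0.126), gave Benjamini-Hochberg adjusted p-values with a threshold of 0.05. SEs were taken from the fold change and its F statistic and can understate the error of genes near 0 counts. Positions are from GENCODE M21 and promoters from RefSeq, 1 per gene by symbol, within 5000 bases of the annotated start.

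The members and the 65 gene lists (1091 of 1093 genes found) were chosen with earlier results of these data known. Named genes are the 12 largest rises and falls and the 10 most abundant in each direction (called, at least 2-fold, at least 10 CPM, no overlap, no predicted model or clone), up to 4 members of smallest adjusted p per list with its most abundant uncalled member, sorting markers, and 5 noncoding genes per direction. Some genes this rule picks are not reported here. Cdh5, Dll4, Edn1, Gata5, Gbp2, Hspa1b, Ifit2, Ifitm1, Irf8, Itih5, Kcnq1, Ldha, Ltbp2, Nfatc1, Pgk1, Ppargc1a, Stat2, 1810009J06Rik and genes in plain lists were chosen after their values were seen or complete a count.

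The batch label pairs the libraries. Deviations from group means over 9425 genes correlated at 0.363, 0.676, 0.353 and 0.518 within batches 1 to 4 and from -0.506 to 0.369 between batches. Replicate libraries differed by more than counting noise (chi-square per gene from 4.39 to 39.4). In counts simulated for this comparison on 14738 genes, the test recovered 95.6% of 91 genes changed by 1 and 100% of 109 changed by 2 on the log2 scale, with 7 false among 203 calls. These counts were drawn without a batch effect and with few changed genes, whereas 60% of tested genes were called in the data. They therefore do not test the scaling where most genes differ, nor the calls where the pairing is ignored. Alternatives were the batch block, the E13 libraries alone, DESeq2 1.42.0 size factors and Wald test, other count filters, a null of 1.5-fold and each library left out.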

Additional observations from a re-analysis of the deposited data

Results flagged for a closer look

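In 316 groups of 4 libraries, from 158 genes, 1 library stood apart from the other 3 by Dixon's 95% limit in 12, and chance flags about 1 group in 20. In the endocardial libraries these were Cgnl1 at 1261.8 CPM and Hoxa3 at 0.480 CPM in library 2, Meox1 at 3.98, Ppargc1a at 1.43 and Wnt7a at 0.0752 CPM in library 1, and Fbln5 at 2.26, Tbx20 at 30.9 and Tubb3 at 0.0595 CPM in library 4. In the coronary libraries they were Nos2 at 28.8 and Hpx at 0.757 CPM in library 1, H2-K1 at 25.4 CPM in library 2 and Dll1 at 42.9 CPM in library 3. Coronary library 1 was the high one for Nos2, and the other 3 coronary libraries still lay above every endocardial one.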

How the results depend on the processing

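Called genes numbered 7937 to 9112 under every alternative except a null of 1.5-fold, and 0 were called in the opposite direction under any. The E13 libraries alone gave 14082 tested and 8749 called genes, 4587 higher and 4162 lower. Of the genes called in the main fit, 374 were not tested there. With the batch as a replicate block 9112 genes were called, of which 4405 higher and 4362 lower were shared. Among the 158 genes whose values are given, the block changed the calls of Ccnd1, H2-K1, Hspa1b, Klf4 and Ppargc1a and of no other. Among the lists, the block raised the erythroid genes called higher from 1 to 6, the cardiomyocyte genes called lower from 1 to 3, and the stress genes called higher from 9 to 13 and lower from 1 to 2. In the fatty acid oxidation, mural, leukocyte and neural crest lists a count moved by 1 gene. These are the 7 lists in which the block moved a count over 1.5 times. Counts in other lists moved by a smaller factor. Flow-responsive factors, for example, went from 5 to 7 higher and from 5 to 6 lower, and protease genes from 5 to 7 lower. With 1.5-fold as the null, 2979 genes were called, 1832 higher and 1147 lower, and 473 of the list genes. With at least 50 counts in every library of a population, fewer genes were tested (11746), and 1601 differed at least 2-fold (1015 higher, 586 lower) and 506 and 150 at least 4-fold. Leaving out 1 library gave 8417 to 8865 called genes, 1703 to 1845 at least 2-fold higher and 857 to 949 at least 2-fold lower. Genes restricted to coronary libraries numbered 79 at a limit of 2 CPM and 1 at 10 CPM, against 16, and those restricted to endocardial ones 2 at a limit of 2 CPM. Without 1 library, Flt1 ran from -0.012 to 0.145 and Meis2 from -0.049 to 0.21, turning in sign without coronary library 1 and coronary library 3, and neither was called there. The cause of these shifts was not tested. Counts under about 10 per library limit what can be said of the low genes, and 4 libraries per population limit the small differences.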
